A study of Mus musculus with 11 samples.

Results

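Immediate-early response genes were followed in cultured neural progenitor cells (NPCs) after deletion of *Smg6*, which encodes an endonuclease of nonsense-mediated mRNA decay (NMD). The group is a named list of 10 genes known to be rapidly induced and to have unstable transcripts, and the rule that lists them uses no value of these libraries, although it was drawn up with earlier results of these data known: *Fos*, *Fosb*, *Jun*, *Junb*, *Egr1*, *Egr2*, *Ier2*, *Ier3*, *Dusp1* and *Nr4a1*. All 10 were found among the 53801 genes counted, and all 10 passed the filter on low counts in every comparison.

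NPCs came from brains of E13.5 embryos of a C57BL/6 and 129SV mixed background and grew with EGF (20 ng/ml) and basic FGF (10 ng/ml), and their total RNA was sequenced in 11 libraries. The Ctr group (embryos SMH_128, SMH_132 and SMH_133) was *Smg6* Flox/Flox; RosaCreER tg/+ and received no 4-hydroxytamoxifen (4-OHT). The *Smg6*-iKO group (embryos SMH_127, SMH_128, SMH_132 and SMH_133) had the same genotype and received 4-OHT, the ligand that activates the CreER recombinase, at 1 µM for 3 days according to the labels. The Ctr + 4-OHT group (embryos SMH_125, SMH_126, SMH_129 and SMH_131) was *Smg6* Flox/Flox; RosaCreER +/+ and received the same 4-OHT without carrying the recombinase. All groups therefore carried the floxed *Smg6* alleles, and RosaCreER is expressed broadly rather than in one cell type. Ctr and Ctr + 4-OHT differed in the drug, in the recombinase and in the embryos at once, and these differences cannot be told apart. Embryos SMH_128, SMH_132 and SMH_133 gave both a Ctr and a *Smg6*-iKO culture.

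The reads assigned to genes numbered from 26418249 to 33756875 a library. *Esr1* is the estrogen receptor gene, and CreER holds part of such a receptor. Reads assigned to *Esr1* lay between 3.89 and 4.71 CPM (read counts scaled to library size) in the 7 libraries labelled as RosaCreER carriers. In the 4 without it they lay between 0.0323 and 0.283 CPM. Counts per gene do not separate reads of the transgene from reads of the mouse gene. *Smg6* itself was little lower at the level of the whole gene, with 69.4, 79.4 and 74.3 CPM in Ctr, 66.5, 72.0, 72.3 and 66.6 CPM in Ctr + 4-OHT and 62.5, 62.3, 71.9 and 67.5 CPM in *Smg6*-iKO, which does not test the deleted part. Of 9 NMD readout genes, 8 rose in *Smg6*-iKO against each control, and *Gas5*, a snoRNA host gene whose transcript is degraded by NMD, lay between 681 and 786 CPM in *Smg6*-iKO and between 255 and 342 CPM elsewhere. Progenitor markers were high in every library (*Nes* from 719.7 to 1018 CPM, *Sox2* from 179 to 319.9 CPM), beside neuronal transcripts (*Tubb3* from 325 to 797 CPM), while each of 6 microglial and 6 erythroid markers stayed under 1 CPM. Collagen and mural genes stood apart in the *Smg6*-iKO library of embryo SMH_127 (1467 CPM summed over 6 markers). The Ctr + 4-OHT library of embryo SMH_131 came next (870.2 CPM), nearer to the 272 to 699 CPM of the other 9. These highest libraries are called collagen-rich below.

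Immediate-early genes are the first genes that cells transcribe after a growth factor, cytokine, stress or electrical stimulus, without new protein synthesis. Signals that run through RAS and the kinases ERK, JNK and p38 reach factors already bound at their promoters, among them serum response factor (SRF) with its ternary complex partners, which binds the CArG box, and CREB, which binds the cyclic AMP response element. The response is brief because the transcripts are short-lived: AU-rich elements in the 3′ untranslated region (UTR), built from repeats of ATTTA, recruit proteins such as ZFP36 that lead the mRNA to deadenylation and decay. In NPCs, EGF and FGF keep this pathway partly active.

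Most members carried the AU-rich pentamer and none carried either of the annotated features linked to NMD that were examined. Searched on the sense strand of the 3′ UTR in GENCODE M21 (GRCm38), with overlapping matches counted, ATTTA occurred in 9 of 10 members and in 68.1% of 13909 coding genes, the exception being *Ier2*. Its density was 3.68 matches per kb as the median of the members and 1.29 as the median of all these genes, and 8 members lay above the latter. The longer TTATTTATT occurred in *Fos* and *Dusp1*, and in 7.81% of all. None of the 10 had an annotated transcript of the NMD class, which 27.4% of the coding genes had. None had an exon junction more than 50 bases after the stop codon of the transcript examined, a feature of 0.49% of the genes, and the members had a median of 2 exons against 9. The 30-base windows below are shown because they hold the densest ATTTA matches (capitals) of 6 members, in the mRNA sense.
*Fos*, chr12:85477100-85477129, plus strand: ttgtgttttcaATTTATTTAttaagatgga
*Junb*, chr8:84977127-84977156, minus strand: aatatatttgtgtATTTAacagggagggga
*Jun*, chr4:95049207-95049236, minus strand: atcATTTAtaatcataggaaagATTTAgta
*Ier3*, chr17:35822484-35822513, plus strand: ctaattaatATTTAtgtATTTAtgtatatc
*Dusp1*, chr17:26506157-26506186, minus strand: agctggtccttATTTATTTAacacccccct
*Nr4a1*, chr15:101274701-101274730, plus strand: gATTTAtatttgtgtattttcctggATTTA

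Promoters of 8 members were in the RefSeq table (GRCm38.p6; 250 bases before to 50 after each start), and those of *Egr1* and *Ier2* were not. A gene with several start sites has several promoters, and it was counted as holding a motif when any of them did. A CArG box was found in 1.81% of all 27025 genes and, among the members, in *Egr2* alone, at 2 places that belong to different start sites. The core of the cyclic AMP response element, TGACG, searched on both strands, was found in 6 of the 8 and in 23.1% of all genes (20.8% of the 32851 promoters), and its full palindrome TGACGTCA, which contains TGACG on both strands, in *Dusp1* and 2.03% of all genes. GGAAGT, a core bound by ETS factors, occurred in *Junb* and *Fos* and in 26.6% of all genes. A match describes the letters only, and the window covers the start of the promoter alone. The windows shown hold the *Egr2*, *Dusp1*, *Fos* and *Junb* matches (capitals), the first pair being the sites of the member whose level differed most between the controls.
*Egr2*, CArG box, chr10:67537484-67537513, plus strand: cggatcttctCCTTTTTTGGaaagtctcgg
*Egr2*, CArG box, chr10:67537787-67537816, plus strand: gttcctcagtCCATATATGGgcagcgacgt
*Dusp1*, TGACGTCA, chr17:26508597-26508626, minus strand: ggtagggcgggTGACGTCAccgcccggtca
*Fos*, TGACG, chr12:85473812-85473841, plus strand: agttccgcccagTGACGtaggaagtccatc
*Junb*, TGACG, chr8:84978837-84978866, minus strand: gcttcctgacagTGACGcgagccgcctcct

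All 10 members were transcribed in every library. On the scale of CPM per kb of annotated exon, which allows levels of different genes to be set side by side, *Ier3* was highest with a median of 107 over the 11 libraries, followed by *Jun* with 82.6. *Fos* (23.4), *Ier2* (16.7), *Egr1* (15.6), *Dusp1* (14.0) and *Junb* (12.4) formed a middle range in which each gene overlapped the next one below across libraries. *Nr4a1* (4.80), *Egr2* (1.16) and *Fosb* (0.472) were the lowest, and each was separated from its neighbours in every library. The fewest reads behind any value were 45, for *Fosb* in Ctr + 4-OHT, and the most were 9761, for *Jun* in *Smg6*-iKO. Within groups, *Fosb* was the most variable member, with a pooled SD of 0.43 on the log2 scale (90.8th percentile of all genes kept), and *Dusp1* the least variable with 0.09 (23.4th percentile).

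**Figure D1:**
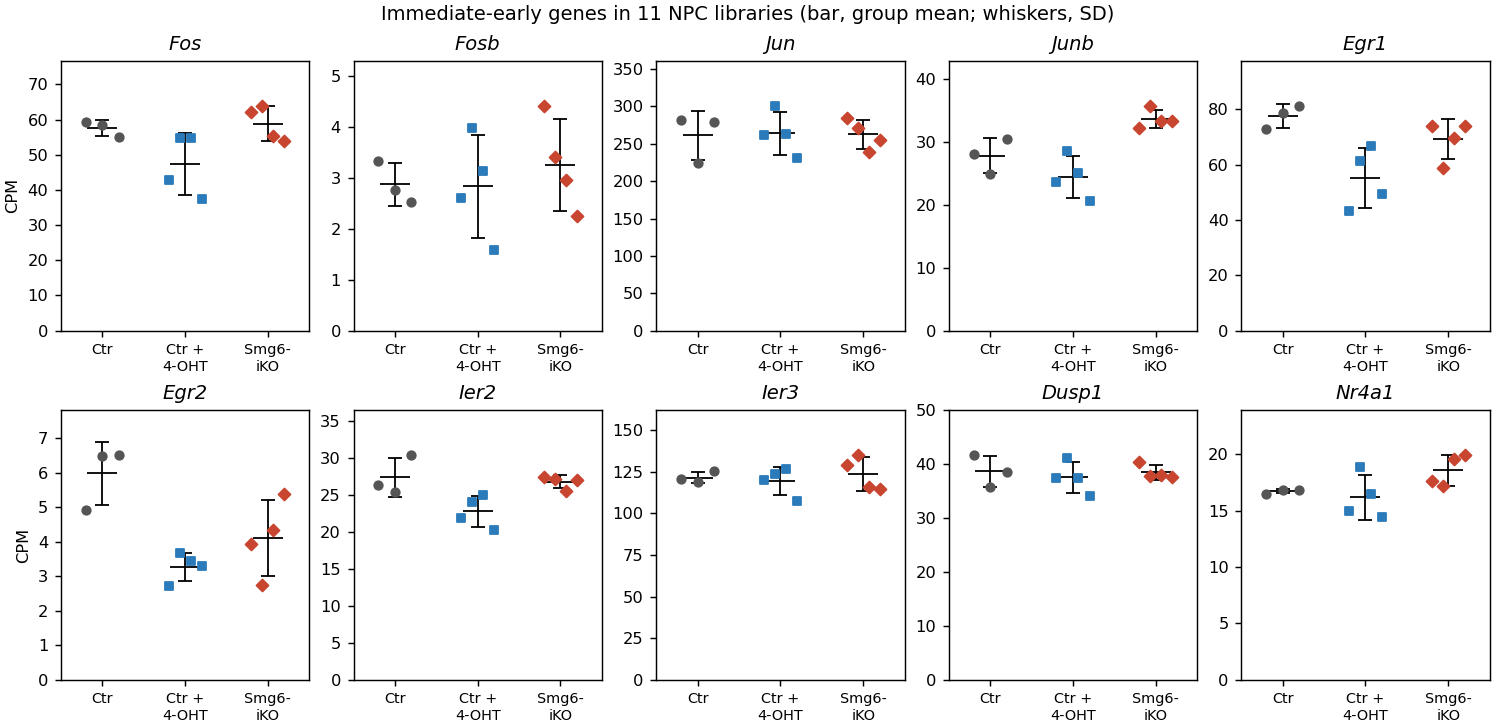
CPM of the 10 immediate-early genes (vertical axes from 0) in each library of Ctr, Ctr + 4-OHT and *Smg6*-iKO, with the group mean as a bar and the SD as whiskers. All 4 *Smg6*-iKO libraries lie above all 7 controls for *Junb*, and all 4 Ctr + 4-OHT libraries lie below all 3 Ctr libraries for *Fos*, *Egr1*, *Egr2* and *Ier2*.

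The deletion was asked about in 2 ways, against cells that received the same 4-OHT and against untreated cells of the same genotype. Neither comparison holds the deletion alone. Against Ctr + 4-OHT the recombinase and the embryos differed as well, and against Ctr the 4-OHT did. These differences cannot be told apart from the deletion. Without regard to the embryo, *Junb* was the one member that passed the threshold, an adjusted p under 0.05 in edgeR over all genes tested. It was higher in *Smg6*-iKO in both comparisons. Against Ctr + 4-OHT 1 of 10 members was called beside 1.17% of all 17558 genes, and against Ctr 1 of 10 beside 9.25% of 17974, so that the second count is about the background share. With the embryo as a block against Ctr, 3 of 10 were called, beside 21.9% of 17660 genes. They were *Junb*, higher, and *Egr1* and *Egr2*, lower. The log2 fold changes of the members had a median of 0.23 against Ctr + 4-OHT (all genes 0.01), with all 10 above 0, and of 0.02 against Ctr (all genes 0.01), with 6 above 0. Without both collagen-rich libraries *Fosb* (-0.17), *Jun* (-0.097), *Ier3* (-0.0075) and *Dusp1* (-0.022) turned below 0 against Ctr + 4-OHT, and without the Ctr + 4-OHT library of embryo SMH_131 alone *Jun* and *Dusp1* did. Both comparisons share the *Smg6*-iKO libraries. Cell type markers moved with the comparison against Ctr: the sum of 10 progenitor markers ran from 5270 to 6164 CPM in *Smg6*-iKO and from 6231 to 6712 in Ctr, and that of 7 neuronal markers from 2094 to 2416 and from 1790 to 1976, without overlap, and their part in the values of *Junb*, *Egr1*, *Egr2* and the other members was not tested. In bulk RNA, fewer cells that express a gene and less RNA of it per cell cannot be told apart.

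**Figure D2:**
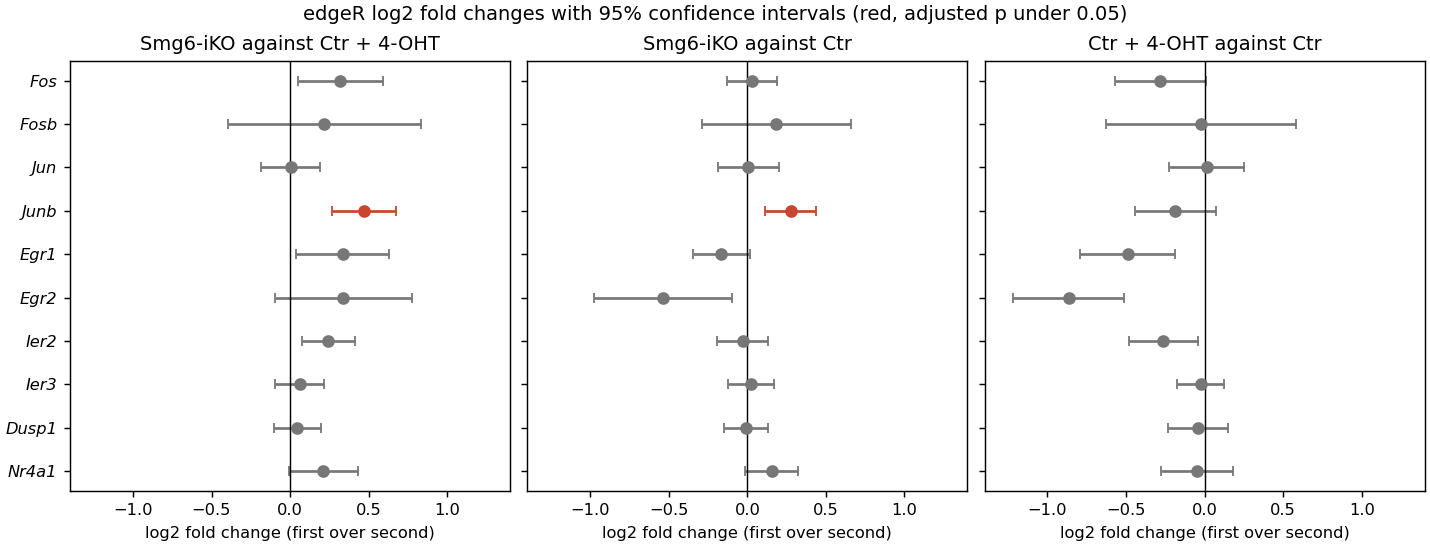
Log2 fold change of each member (horizontal axis, first group over second) in the 3 comparisons, with 95% confidence intervals from edgeR and red points for an adjusted p under 0.05. *Junb* alone is red, at 0.47 against Ctr + 4-OHT and 0.28 against Ctr, and the intervals of *Egr1*, *Egr2* and *Ier2* lie below 0 in the comparison of the controls without passing the threshold.

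*Junb* (ENSMUSG00000052837, chr8:84974484-84978718, minus strand) encodes an AP-1 subunit that pairs with FOS proteins and moderates the activity of JUN. Its levels were 28.1, 24.9 and 30.4 CPM in Ctr, 23.6, 28.6, 25.0 and 20.6 CPM in Ctr + 4-OHT, and 32.2, 35.7, 33.3 and 33.3 CPM in *Smg6*-iKO. Every *Smg6*-iKO library was above every control library of either kind. Groups that do not overlap were seen for 11% of all genes against Ctr + 4-OHT and 23.3% against Ctr. The rise was 1.39-fold against Ctr + 4-OHT (log2 fold change 0.47, SE 0.09, 95% CI 0.27 to 0.68, edgeR adjusted p = 0.0407) and 1.21-fold against Ctr (0.28, SE 0.07, 95% CI 0.11 to 0.44, edgeR adjusted p = 0.0431). The two-sided exact permutation p was 0.0286 for 4 against 4 libraries and 0.0571 for 4 against 3, in each case the smallest that these numbers allow. Both calls were near the threshold. With 1 library left out, the adjusted p was under 0.05 in 1 of 8 fits against Ctr + 4-OHT (without embryo SMH_126, 0.0223; the other 7 from 0.0699 to 0.135) and in 1 of 7 against Ctr (without embryo SMH_133, 0.0397; the other 6 from 0.0575 to 0.156), while the log2 fold change stayed between 0.39 and 0.56 and between 0.19 and 0.34. Without both collagen-rich libraries it was 0.42 (adjusted p = 0.171) and 0.30 (0.0636). The call also ended with the trend over gene length removed (log2 fold change 0.42, adjusted p = 0.058, and 0.23, adjusted p = 0.0743) and, against Ctr, with all 11 libraries fitted together (0.28, adjusted p = 0.134). *Junb* shares 173 exonic bases with the antisense gene *Prdx2*, and the reads were counted by strand.

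The change of *Junb* was also seen within embryos, in libraries already used in the comparison against Ctr. From Ctr to *Smg6*-iKO it went from 28.1 to 35.7 CPM in embryo SMH_128, from 24.9 to 33.3 in embryo SMH_132 and from 30.4 to 33.3 in embryo SMH_133. With the embryo as a block, in the 6 libraries of these 3 embryos, it was 1.23-fold higher (log2 fold change 0.30, SE 0.07, adjusted p = 0.00462). This fit called 21.9% of 17660 genes, and in the same 6 libraries without the block *Junb* was not called.

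The other 3 AP-1 members did not pass. *Fos* (chr12:85473890-85477273, plus strand), the partner of JUN proteins in the classical AP-1 dimer, had 59.4, 58.5 and 55.1 CPM in Ctr, 42.7, 54.7, 54.9 and 37.5 CPM in Ctr + 4-OHT and 62.2, 63.9, 55.4 and 53.8 CPM in *Smg6*-iKO. Ctr and *Smg6*-iKO overlapped, and the Ctr + 4-OHT libraries of embryos SMH_125 and SMH_131 were the low ones. Its log2 fold change was 0.32 ± 0.12 (SE) against Ctr + 4-OHT (adjusted p = 0.224) and 0.03 ± 0.07 against Ctr (adjusted p = 0.843). *Fosb* (chr7:19302696-19310051, minus strand), a FOS paralogue known for the stable variant ΔFosB, ran from 2.53 to 3.33 CPM in Ctr, from 1.59 to 3.98 in Ctr + 4-OHT and from 2.25 to 4.40 in *Smg6*-iKO, and the 3 groups overlapped. *Jun* (chr4:95049034-95052222, minus strand), the most abundant of the AP-1 genes here, ran from 224 to 282 CPM in Ctr, from 231 to 301 in Ctr + 4-OHT and from 239 to 285 in *Smg6*-iKO. The 95% intervals of its log2 fold change, -0.18 to 0.19 against Ctr + 4-OHT and -0.19 to 0.20 against Ctr, leave room for small changes either way. *Jun* shares 232 exonic bases with the antisense gene *Junos*.

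The EGR genes encode zinc finger transcription factors induced through ERK and SRF, and *Egr2* had the largest fold change of all members from Ctr to either 4-OHT group. *Egr2* (chr10:67535475-67542188, plus strand), known also as the myelination factor KROX20, had 4.92, 6.49 and 6.50 CPM in Ctr, 2.72, 3.68, 3.42 and 3.29 CPM in Ctr + 4-OHT and 3.94, 2.75, 4.35 and 5.38 CPM in *Smg6*-iKO. All Ctr + 4-OHT libraries were below all Ctr libraries, whereas 1 *Smg6*-iKO library, of embryo SMH_133, exceeded the lowest Ctr library. *Egr1* (chr18:34859823-34864984, plus strand), the most widely used marker of ERK activity among these genes, had 72.8, 78.5 and 81.1 CPM in Ctr, 43.3, 61.4, 66.7 and 49.4 CPM in Ctr + 4-OHT and 74.0, 58.7, 69.7 and 73.9 CPM in *Smg6*-iKO. Again the Ctr + 4-OHT libraries lay below Ctr without overlap, and the *Smg6*-iKO libraries overlapped with both.

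Without regard to the embryo, neither EGR gene passed the threshold in edgeR against either control, while *Egr2* passed it against Ctr with DESeq2 (adjusted p = 0.0444) and in edgeR with no filter on low counts (adjusted p = 0.00957). With no filter, edgeR gave some genes a far lower p at nearly the same fold change. *Gas5* against Ctr went from 1.098 (adjusted p = 1.22e-05) to 1.105 (adjusted p = 8.02e-48) on the log2 scale. Calls of that fit are to be read with this limit. For *Egr2* the log2 fold change in *Smg6*-iKO was -0.54 ± 0.20 (SE) against Ctr (adjusted p = 0.112) and 0.34 ± 0.20 against Ctr + 4-OHT (adjusted p = 0.42), and for *Egr1* it was -0.16 ± 0.08 (adjusted p = 0.232) and 0.33 ± 0.13 (adjusted p = 0.241). Single libraries moved these values: *Egr2* against Ctr + 4-OHT was 0.17 without the *Smg6*-iKO library of embryo SMH_133, and *Egr1* against Ctr was -0.094 without that of embryo SMH_128. With the embryo as a block both fell in *Smg6*-iKO against Ctr, *Egr2* 1.45-fold (log2 fold change -0.53, SE 0.13, adjusted p = 0.00611) and *Egr1* 1.15-fold (-0.20, SE 0.05, adjusted p = 0.00968). Both were lower in 3 of 3 embryos: *Egr2* went from 4.92 to 2.75, from 6.49 to 4.35 and from 6.50 to 5.38 CPM, and *Egr1* from 72.8 to 58.7, from 78.5 to 69.7 and from 81.1 to 73.9 CPM. In that fit 3 of 10 members were called, beside 21.9% of 17660 genes, and the library of embryo SMH_127 was left out because it has no untreated partner. In the same fit *Smg6* was lower as well (log2 fold change -0.15, adjusted p = 0.0423). The cultures of an embryo differed in 4-OHT as well as in the deletion. Both EGR genes were also lower in Ctr + 4-OHT, which lacks the deletion, than in Ctr.

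**Figure D3:**
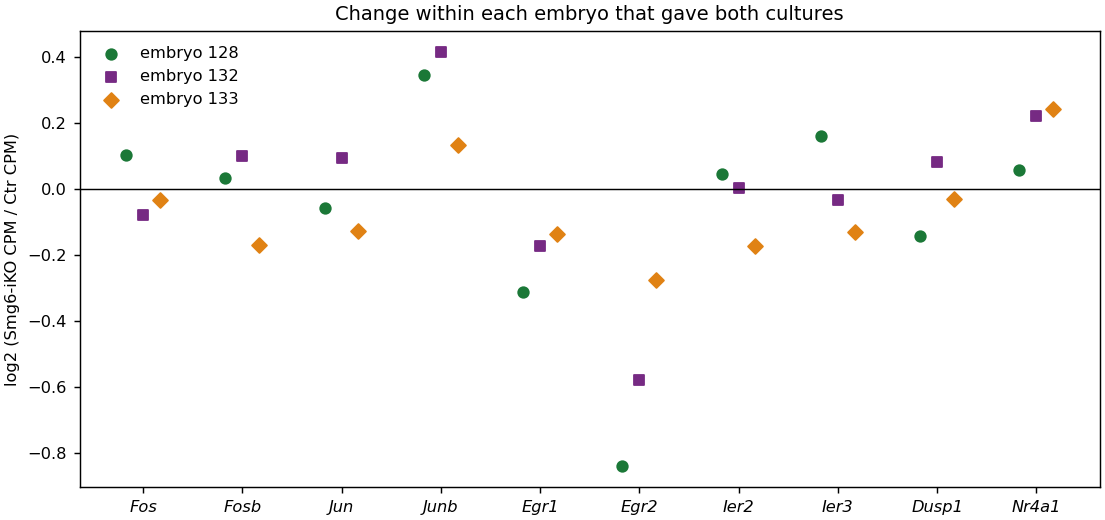
Log2 ratio of *Smg6*-iKO over Ctr CPM (vertical axis) for each member in the 3 embryos that gave both cultures, each with its own symbol. *Junb* and *Nr4a1* are above 0, and *Egr1* and *Egr2* below 0, in all 3 embryos, and the other 6 members change sign between embryos. The share of all genes that keep their direction in the 3 embryos was not examined.

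*Nr4a1* (chr15:101254269-101274795, plus strand) encodes the orphan nuclear receptor NUR77, a fast responder to growth factors and calcium. It had 16.5, 16.8 and 16.8 CPM in Ctr, 15.0, 18.9, 16.4 and 14.5 CPM in Ctr + 4-OHT and 17.6, 17.2, 19.6 and 19.9 CPM in *Smg6*-iKO. All *Smg6*-iKO libraries were above all Ctr libraries, although they overlapped with Ctr + 4-OHT. The log2 fold change was 0.15 ± 0.08 (SE) against Ctr (adjusted p = 0.229; 0.18 and adjusted p = 0.104 when blocked by embryo) and 0.21 ± 0.10 against Ctr + 4-OHT (adjusted p = 0.313).

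*Ier2* (chr8:84661331-84662852, minus strand), which encodes a nuclear protein induced by growth factors, had 26.4, 25.4 and 30.4 CPM in Ctr, 21.9, 24.0, 25.0 and 20.3 CPM in Ctr + 4-OHT and 27.4, 27.2, 25.5 and 27.0 CPM in *Smg6*-iKO. The Ctr + 4-OHT libraries were below all others. Against them *Smg6*-iKO differed by a log2 fold change of 0.24 ± 0.08 (SE, adjusted p = 0.149), and against Ctr it was -0.03 ± 0.07 (adjusted p = 0.833). *Ier3* (chr17:35821684-35822923, plus strand), a regulator of cell survival and of ERK dephosphorylation, ran from 119 to 125.5 CPM in Ctr, from 108 to 126.9 in Ctr + 4-OHT and from 115 to 135 in *Smg6*-iKO, and the groups overlapped.

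*Dusp1* (chr17:26505590-26508519, minus strand) encodes the phosphatase MKP-1, which switches off p38 and JNK and so ends the response. It ran from 35.9 to 41.7 CPM in Ctr, from 34.1 to 41.2 in Ctr + 4-OHT and from 37.7 to 40.5 in *Smg6*-iKO, with overlap between all groups. The 95% interval of its fold, *Smg6*-iKO over Ctr + 4-OHT, was 0.931 to 1.15, and over Ctr it was 0.903 to 1.10.

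The controls were compared because they differ in 4-OHT and in the recombinase while neither carries the deletion. No member was called in edgeR, beside 0.221% of 17665 genes, while DESeq2 called 1 (*Egr2*) among 168 genes in all, edgeR with no filter on low counts called 2 (*Egr2*, adjusted p = 0.00508, and *Egr1*, adjusted p = 0.0129) among 198, and 3 of 10 had an unadjusted p under 0.05 in edgeR (8.28% of all genes). The limit given above for the fit with no filter applies here too. *Egr2* was at 3.28 ± 0.406 CPM (SD, n = 4) in Ctr + 4-OHT and 5.97 ± 0.908 (n = 3) in Ctr, a log2 fold change of -0.87 ± 0.16 (SE, edgeR adjusted p = 0.0995; DESeq2 adjusted p = 0.00054). *Egr1* was at 55.2 ± 10.8 and 77.5 ± 4.27 CPM (log2 fold change -0.49 ± 0.13, adjusted p = 0.351), *Ier2* at 22.8 ± 2.11 and 27.4 ± 2.64 CPM (-0.26 ± 0.10, adjusted p = 0.51) and *Fos* at 47.4 ± 8.76 and 57.7 ± 2.29 CPM (-0.28 ± 0.13, adjusted p = 0.619). For these 4 members the groups did not overlap, all with Ctr + 4-OHT lower, beside 8.71% of all genes without overlap and 4.91% with Ctr + 4-OHT lower. The two-sided exact permutation p was 0.0571 for each, the smallest that 4 against 3 libraries allow, so that this test could not pass 0.05. The other 6 members overlapped. The sum of 6 oligodendrocyte lineage markers also differed without overlap between the controls (617 to 680.4 CPM in Ctr, 687 to 918 CPM in Ctr + 4-OHT), and its part in the values of the members was not tested.

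One control library held most of the lowest values. The Ctr + 4-OHT library of embryo SMH_131 was the lowest of all 11 for 7 members (*Fos*, *Fosb*, *Junb*, *Ier2*, *Ier3*, *Dusp1* and *Nr4a1*), and that of embryo SMH_125 was the lowest for *Egr1* and *Egr2*. Averaged over the members as standard scores of log2 CPM, embryo SMH_131 stood at -1.72 and embryo SMH_125 at -0.95, and the other 9 libraries lay between -0.13 and 0.75. These 2 libraries also had the highest sums of 7 neuronal markers (2491 and 2676 CPM, against 1644 to 2416 in the other 9) and, after the *Smg6*-iKO library of embryo SMH_127, the highest sums of the 6 collagen and mural markers (870.2 and 699 CPM). Their part in the values of the members was not tested. The *Smg6*-iKO library of embryo SMH_127, with the most collagen RNA, had the highest mean score of all (0.75). Without the library of embryo SMH_131 the log2 fold changes in *Smg6*-iKO relative to the remaining Ctr + 4-OHT were 0.22 for *Fos*, 0.28 for *Egr1*, 0.19 for *Ier2* and 0.02 for *Fosb*, and the difference of *Fos* between the controls was -0.18.

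**Figure D4:**
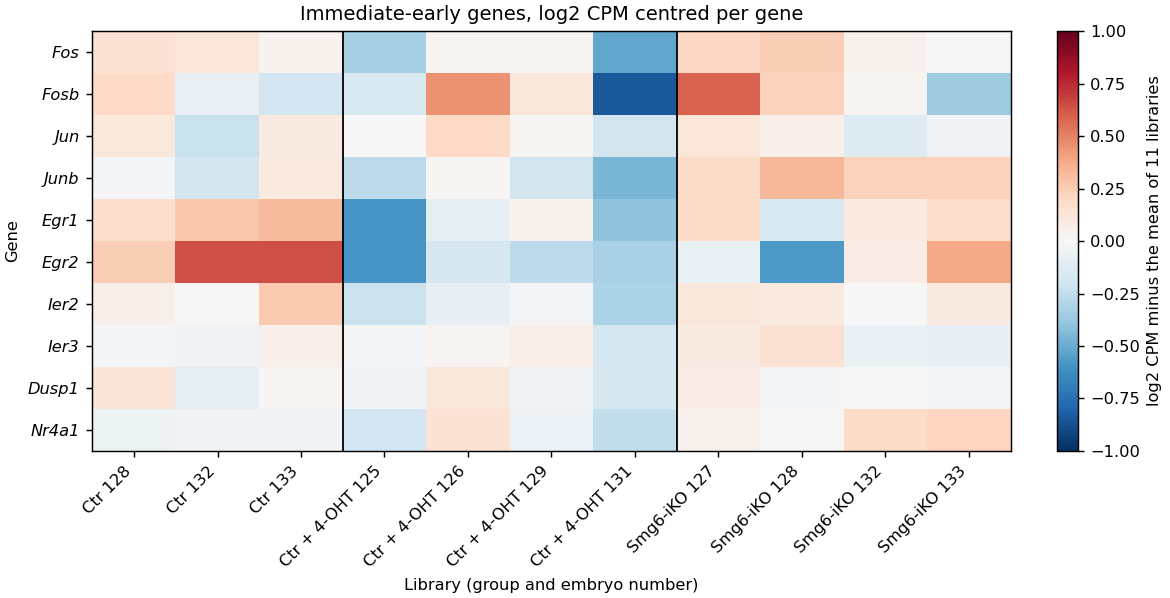
Log2 CPM of the 10 members (rows) in the 11 libraries (columns, by group and embryo), each gene centred on its mean over all libraries, with red above and blue below that mean. The Ctr + 4-OHT library of embryo SMH_131 is blue for every member, *Egr2* is red in the 3 Ctr libraries, and *Junb* is red in the 4 *Smg6*-iKO libraries.

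Genes with the most similar pattern were sought among 14819 others with a mean of at least 1 CPM, by Pearson's r over the 11 libraries with the mean score of the members. They were *Stbd1* (r = 0.94), a glycogen-binding protein gene, *Uck1* (0.93), a uridine-cytidine kinase gene, *Npas4* (0.92), an activity-induced transcription factor gene, *Zfp36* (0.91), the gene of the ATTTA-binding decay factor, and *Adora2a* (0.91), an adenosine receptor gene. *Npas4* and *Zfp36* are immediate-early genes themselves. Each of the 5 was lowest in the Ctr + 4-OHT library of embryo SMH_131, with 6.50 CPM for *Stbd1*, 2.97 for *Npas4* and 4.13 for *Zfp36*. How far the likeness rests on that library was not tested.

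Beyond the members, 42 further immediate-early genes were listed. Against Ctr + 4-OHT 40 were tested and none was called by edgeR, beside 1.17% of all genes (8 at an unadjusted p under 0.05, beside 16.7% of all genes, and 2 called by DESeq2 among 880 genes in all), with 31 above 0 and a median log2 fold change of 0.12. Against Ctr, 7 of 41 rose, 1 fell and 33 did not pass, beside 9.25% of all genes called, with a median of 0.07. The rises included *Ptgs2*, the prostaglandin synthase gene COX-2 (0.45, 0.48 and 0.38 CPM in Ctr, and 3.70, 1.72, 0.61 and 1.20 CPM in *Smg6*-iKO; log2 fold change 2.06, SE 0.56, adjusted p = 0.0448), *Klf2*, a Krüppel-like factor (0.78, adjusted p = 0.0427), and *Atf3*, a stress-induced partner of JUN (0.57, adjusted p = 0.0285). The largest *Ptgs2* value was in the collagen-rich library of embryo SMH_127, and without it the log2 fold change was 1.41 (adjusted p = 0.0597). In Ctr + 4-OHT *Ptgs2* had 0.97, 0.69, 0.42 and 2.05 CPM, and *Smg6*-iKO differed from it by a log2 fold change of 0.85 (adjusted p = 0.488), which became 0.20 without the *Smg6*-iKO library of embryo SMH_127, 1.43 without the Ctr + 4-OHT library of embryo SMH_131 and 0.79 without both. Ctr + 4-OHT itself differed from Ctr by log2 fold changes of 1.22 for *Ptgs2*, 0.44 for *Klf2* and 0.30 for *Atf3*, none of them called by edgeR, and that of *Ptgs2* was 0.64 without embryo SMH_131. *Socs3*, *Klf4*, *Rhob* and *Plk2* rose by 0.45, 0.40, 0.30 and 0.23 on the log2 scale. *Per1*, a clock gene that is also induced by CREB, fell by 0.41 (adjusted p = 0.0273), from 91.8, 85.5 and 87.9 CPM to 58.0, 63.8, 80.5 and 63.5. It was also below every Ctr library in Ctr + 4-OHT (44.5, 84.8, 76.6 and 42.5 CPM), a log2 difference of -0.51 that edgeR did not call (adjusted p = 0.596). Blocked by embryo, 9 of 40 rose and 4 fell, beside 21.9% of all genes called. In the comparison of the controls none of 40 was called in edgeR (8 at an unadjusted p under 0.05, beside 8.28% of all genes, and 3 called by DESeq2).

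The kinases and factors that feed these genes are read beside 1.17% of all genes called against Ctr + 4-OHT and 9.25% against Ctr. None of 25 genes from the EGF and FGF receptors to ERK was called by edgeR against Ctr + 4-OHT (4 at an unadjusted p under 0.05, beside 16.7% of all genes, and 1 called by DESeq2), and 1, the FGF receptor gene *Fgfr2*, fell against Ctr, from 127.7, 108 and 104 CPM to 85.8, 83.2, 79.3 and 82.4 (log2 fold change -0.46, SE 0.07, adjusted p = 0.00557). *Fgfr2* had 92.9, 90.7, 84.2 and 78.0 CPM in Ctr + 4-OHT, lower than Ctr by 0.39 on the log2 scale, a difference that edgeR did not call (adjusted p = 0.184), while DESeq2 and edgeR with no filter on low counts did (lowest adjusted p = 0.0153). Among 13 tested feedback and output genes of ERK, *Spry1*, an inhibitor of receptor signalling, rose against Ctr (0.20, adjusted p = 0.0427). Of 16 genes for SRF, its partners, CREB and their coactivators, *Crtc3*, a CREB coactivator, rose against both controls, from 17.9 to 19.4 CPM in Ctr + 4-OHT and 18.0 to 20.8 in Ctr to 22.3 to 24.9 in *Smg6*-iKO (log2 fold changes 0.33 and 0.30, adjusted p = 0.0409 and 0.0378). Blocked by embryo, against Ctr, 4 of the 25 receptor and kinase genes fell, 6 of the 13 feedback genes rose and 1 fell, and 1 of the 16 rose and 2 fell, again beside 21.9% of all genes. As for *Junb*, both calls of *Crtc3* were close to the threshold.

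Stress kinases and decay factors included called genes against Ctr, and none was called by edgeR against Ctr + 4-OHT (2 of 14 and 1 of 15 at an unadjusted p under 0.05, and 1 and 0 called by DESeq2). Against Ctr 5 of the 15 kinase genes and 2 of the 15 decay factor genes were called, beside 9.25% of all genes. Of the JNK and p38 kinase genes, the p38 and JNK genes *Mapk11* and *Mapk10* rose by 0.37 and 0.29 on the log2 scale, while *Map2k6*, *Mapkapk2* and *Map3k1*, which encode kinases up- and downstream of them, fell by 0.36, 0.29 and 0.29. Among the genes for proteins that bind AU-rich and related elements, *Zfp36l1* and *Zfp36l2*, paralogues of *Zfp36*, fell by 0.39 and 0.26 (adjusted p = 0.019 and 0.038). *Zfp36l1* had 75.3, 64.4 and 59.2 CPM in Ctr and 49.3, 52.1, 53.5 and 47.4 in *Smg6*-iKO, and between 34.1 and 64.0 in Ctr + 4-OHT. Of 12 heat shock genes tested none was called in any of the 3 comparisons in edgeR, while against Ctr 5 had an unadjusted p under 0.05 (beside 26.9% of all genes), 3 were called by DESeq2 (beside 2407 genes in all) and 5 fell when blocked by embryo, a fit that called 21.9% of all genes. The lowest p belonged to *Hspe1* and *Hspd1*, the mitochondrial chaperonin genes, with log2 fold changes of -0.22 (adjusted p = 0.0552) and -0.17 (adjusted p = 0.0953) against Ctr. They were among those that fell when blocked, by 0.20 (adjusted p = 0.0183) and 0.16 (adjusted p = 0.0373). Many of these calls against Ctr depended on single libraries: *Fgfr2* was called in 7 of 7 fits with 1 library left out, *Mapk11* and *Map2k6* in 5, *Map3k1* and *Zfp36l1* in 4, *Atf3* and *Mapkapk2* in 3, *Ptgs2*, *Klf2*, *Per1* and *Crtc3* in 2 and *Spry1*, *Mapk10* and *Zfp36l2* in 1, with no change of direction. Against Ctr + 4-OHT *Crtc3* was called in 0 of 8. Against Ctr with all 11 libraries in one fit, *Ptgs2*, *Klf2*, *Per1*, *Spry1*, *Mapk11*, *Mapk10*, *Map3k1*, *Zfp36l1* and *Zfp36l2* were not called. Their adjusted p in edgeR ran from 0.0558 for *Klf2* to 0.2705 for *Per1*. The calls of *Fgfr2*, *Map2k6*, *Mapkapk2*, *Atf3* and *Crtc3* stayed. The 9 NMD readouts had median log2 fold changes of 0.70 and 0.74 against Ctr + 4-OHT and Ctr (8 of 9 called in each), the largest being 2.33 and 2.19 for *Zfas1*, while the largest of any immediate-early member against either control was 0.54 in size, for *Egr2* against Ctr.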

How the data were processed

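RNA of NPC cultures was sequenced in 11 libraries (3 Ctr, 4 Ctr + 4-OHT, 4 *Smg6*-iKO), grouped by the sample labels. The authors deposited raw counts per gene, made with STAR 2.5.4b on GRCm38 and featureCounts 1.5.0 in stranded mode, with reads of several positions or genes left out; ribosomal RNA had been depleted. The labels give 3 days of 4-OHT, and the study took RNA 6 days after the treatment, although it also describes culture with 4-OHT throughout, so that the length of exposure is uncertain. Libraries of a group are separate embryos, and no 2 held duplicate counts (chi-square per gene at least 11.0).

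Differential expression was computed with edgeR 4.0.16 in R 4.3.3: filterByExpr, TMM and the quasi-likelihood test, with p-values adjusted after Benjamini and Hochberg over all genes tested, with an adjusted p under 0.05 as threshold, each comparison fitted to its own groups. CPM were computed after TMM over 11 libraries (18123 genes kept, prior count 2 on the log2 scale). Single genes were also compared by two-sided exact permutation of log2 CPM. Alternatives were DESeq2 1.42.0, other scalings and filters, a length trend, 1 library left out and the embryo as a block. Embryos SMH_128, SMH_132 and SMH_133 gave both Ctr and *Smg6*-iKO, and across genes the residuals of the same embryo in both groups correlated by 0.364 to 0.468 (-0.246 to -0.135 between different embryos). The main fit, DESeq2, the other scalings and filters, the length trend and the joint fit of all libraries were tested on simulated counts. The block by embryo and the fits with libraries left out were not. Exon lengths come from the count files. Figures used matplotlib 3.10.9.

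The members and the gene lists were chosen with earlier results of these data known. Named were all members, up to 3 higher and 3 lower genes per list with the largest called change against either control, or the 2 with the lowest p where none was called, and 5 genes by likeness. *Socs3*, *Klf4*, *Rhob* and *Plk2* were named after their values were seen. Counting error and variation between embryos are both contained in the SDs, and the intervals of edgeR rest on them.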

Additional observations from a re-analysis of the deposited data

Results flagged for a closer look

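One value of a member stood far from the rest of its group. *Dusp1* had 40.5 CPM in the *Smg6*-iKO library of embryo SMH_127, and the gap to the next library, divided by the range of the 4, exceeded the 95% critical value of the Dixon test for 4 samples. The whole group spanned 37.7 to 40.5 CPM. Of 20 groups of 4 libraries examined, 1 exceeded it, and chance alone would do so in about 1 in 20. The Ctr group of 3 was not examined.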

How the results depend on the processing

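Directions held for most alternatives, and the calls near the threshold did not. Over the 3 comparisons and the 10 members, 212 of the log2 fold changes under other scalings, filters and fits kept their direction and their side of the threshold, 26 changed sign, 7 passed the threshold only then and 5 no longer passed it. With 1 library left out these counts were 179 unchanged in both respects, 28 of the other sign and 13 no longer past the threshold. All those of the other sign belonged to differences that had not been called. The cause of these shifts was not tested, except that fits without a library hold fewer samples.

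Against Ctr + 4-OHT, 0 members were called with the trend over gene length removed and 0 without both collagen-rich libraries (an alternative chosen after seeing the data), and between 0 and 1 with 1 library left out. *Junb* was lost without each library other than the Ctr + 4-OHT library of embryo SMH_126. All genes called, 206 at first (73 of them lower), became 418 (234 higher, 184 lower) without filtering, 484 (243 and 241) in a joint fit of all 11 libraries, 880 (387 and 493) with DESeq2, 42 (33 and 9) without both collagen-rich libraries and between 66 and 174 with 1 library left out, and 94 were higher and 156 lower with the length trend removed.

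Against Ctr, 0 members were called with all 11 libraries in one fit, 0 with the length trend removed, 0 without the collagen-rich library, 2 with no filter, 2 with DESeq2 and 3 with the replicate block by embryo, and between 0 and 1 with 1 library left out, where *Junb* was kept only without the Ctr library of embryo SMH_133. Beside the main fit, the block changed no member's call other than those of *Egr1* and *Egr2*. It also left out the collagen-rich library, and in the same libraries without the block 0 members were called, so that *Junb* too was called only with it. All genes called, 1663 at first (767 higher, 896 lower), became 2714 (1461 and 1253) with no filter, 796 (320 and 476) with all 11 libraries, 3873 (1844 and 2029) with the replicate block, 843 (376 and 467) without the collagen-rich library and between 570 and 2524 with 1 library left out. Upper-quartile scaling gave 1089 higher and 694 lower, and removal of the length trend 550 and 1405.

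Between the controls, 2 members were called with no filter and 1 with DESeq2. All genes called, 39 at first (7 higher, 32 lower), became 198 (57 and 141) with no filter, 60 (9 and 51) with all 11 libraries, 168 (40 higher) with DESeq2, 23 (4 and 19) without the collagen-rich library and between 5 and 54 with 1 library left out.

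The log2 fold changes that changed sign were small. Against Ctr + 4-OHT they were, without both collagen-rich libraries, -0.17 for *Fosb*, -0.097 for *Jun*, -0.0075 for *Ier3* and -0.022 for *Dusp1*. With the length trend removed they were -0.045 for *Jun* and -0.00057 for *Dusp1*, and *Jun* was also at -0.0042 with DESeq2's size factors, -0.0079 with all 11 libraries and -0.011 with DESeq2's test. Against Ctr they were -0.014 for *Fos* and -0.039 for *Jun* with the length trend removed, -0.0017 for *Fos*, -0.0024 for *Fosb* and -0.029 for *Jun* with the replicate block, -0.0068 for *Fosb* and -0.035 for *Jun* without the collagen-rich library, and -0.0026 for *Jun* with DESeq2. *Ier2* was at 0.0029 and *Dusp1* at 0.027 with upper-quartile scaling, and *Dusp1* at 0.00086 with no filter and 0.0071 with at least 10 counts in every library. Between the controls, without the collagen-rich library, they were 0.18 for *Fosb*, 0.028 for *Ier3*, 0.0070 for *Dusp1*, 0.011 for *Nr4a1* and 0.035 for *Zfp36l2*, and *Ier3* was at 0.018 with the length trend removed.

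With 1 library left out, log2 fold changes that crossed 0 ran against Ctr + 4-OHT from -0.062 to 0.071 for *Jun*, -0.0019 to 0.094 for *Dusp1*, -0.042 to 0.29 for *Per1*, -0.0021 to 0.15 for *Mapk11*, -0.012 to 0.18 for *Mapk10* and -0.073 to 0.23 for *Zfp36l1*. Against Ctr they ran from -0.013 to 0.067 for *Fos*, -0.0068 to 0.33 for *Fosb*, -0.11 to 0.064 for *Jun*, -0.092 to 0.046 for *Ier2*, -0.020 to 0.057 for *Ier3* and -0.070 to 0.053 for *Dusp1*. Between the controls they ran from -0.23 to 0.18 for *Fosb*, -0.087 to 0.080 for *Jun*, -0.055 to 0.028 for *Ier3*, -0.095 to 0.014 for *Dusp1*, -0.13 to 0.011 for *Nr4a1*, -0.058 to 0.052 for *Crtc3*, -0.11 to 0.064 for *Zfp36l2* and -0.0032 to 0.11 for *Hspd1*. The fewest reads in a library were 45, for *Fosb*, and 73, for *Egr2*.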
